A study of Mus musculus with 18 samples.

Results

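Mammary tumours of parous mice with metastasis were compared between mice deficient in Snai2 (Snai2 KO) and mice with intact Snai2 (Snai2 WT). The arrays were taken by their titles, which gave 3 KO arrays and 4 WT arrays, 7 of the 18 arrays of the series. All 7 tumours carried the ERBB2 transgene (MMTV-neu, driven by a promoter active mainly in mammary epithelium), came from mice that had been through pregnancy, and are described as luminal and ERBB2 positive. The transgene came from an FVB/N line, and the Snai2 mutation (Snai2tm2Grid) was made in mice of a B6;129S1 background, so the KO allele brings DNA of another strain with it, and the strain mix of each tumour is not known. The deletion was present throughout the animal, in the tumour cells and in the host. Ages and agents are not given by the labels, which report no treatment. For comparison, nulliparous tumours were used: 1 KO tumour with metastasis, 3 KO tumours without metastasis and 4 WT tumours with metastasis, with 3 parous KO tumours without metastasis as a further reference.

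Snai2 encodes Slug, a zinc-finger transcription factor of the Snail family. Snail factors bind E-boxes, short palindrome-like DNA motifs, and mostly repress their targets, among them the gene for the cell adhesion protein E-cadherin (Cdh1). In the mammary gland Slug is found in basal cells and in stroma, and it is known for its part in the epithelial-mesenchymal transition, in which epithelial cells lose contacts and gain motility. ERBB2 is a receptor tyrosine kinase that signals through the MAPK and PI3K pathways and drives luminal tumours when overexpressed. The series title states the question of how Snai2 influences the evolution of breast cancer, outside the tumour cell as well as in it.

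All values are log2 RMA expression values, on which 1 unit is a 2-fold difference; the median of all gene means was 8.07, and genes with a mean below 7.34 form the dimmest 40%, whose differences RMA compresses most. KO replicates 2 and 3 held almost the same values. The SD of the gene-by-gene difference between them was 0.102 (10254 genes with a mean of 8 or more), and the next closest of the 21 pairs among the 7 arrays had 0.322. They were therefore averaged and counted as 1 sample, called the KO pair below, which left 2 KO samples against 4 WT samples. These KO samples differed from each other by more (SD 0.510 over 11963 brighter genes) than KO tumour 1 differed from any WT tumour (0.395 to 0.455). The KO pair differed from WT tumours by 0.379 to 0.521, the last from WT tumour 4. WT tumours differed from each other by 0.322 to 0.442. Luminal identity was checked first: Krt8 lay between 13.09 and 13.63, Krt18 between 13.03 and 13.59 and Epcam between 12.63 and 12.83 in all 6 samples. The fourth luminal marker, Krt19, was at 6.51 to 6.92 in 5 samples and at 8.84 in the KO pair. WT tumour 2 stood apart by stromal genes, with a mean log2 of 10.03 over 23 fibroblast and matrix genes against 8.13 to 9.14 in the other samples.

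Snai2 was lower in both KO samples than in all 4 WT samples, by a small margin. Its values were 6.60 in KO tumour 1 and 6.59 in the KO pair, and 6.87, 7.09, 6.68 and 6.68 in WT tumours 1 to 4. The groups did not overlap, but the gap between the nearest samples was narrower than the spread within the WT group. The difference was -0.23 (SE 0.16; limma adjusted p = 0.929), and the exact 2-sided permutation test over samples gave p = 0.133, the smallest that 15 splits of 2 against 4 can reach. Snai2 was below the median brightness of all genes in every group. Across the other groups it measured 6.36 to 6.79 in nulliparous KO tumours without metastasis and 6.70 to 7.07 in nulliparous WT tumours. In parous KO tumours without metastasis it was at 6.74, 6.48 and 6.28, and in the lone nulliparous KO tumour with metastasis at 6.38. Over the whole series KO and WT values of Snai2 therefore overlapped. The labels do not say whether the probes lie inside the deleted part of the gene, so this level only partly checks the genotype labels. The transgene's gene, Erbb2, was among the bright genes in all samples, with 12.91 and 12.79 in KO against 12.81, 12.75, 12.81 and 12.68 in WT. The KO pair lay inside the WT range and KO tumour 1 just above it; the difference was 0.09 (SE 0.12), with an exact permutation p = 0.4.

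No gene passed the threshold between KO and WT. Of 19938 genes tested with limma, 0 (0%) had an adjusted p under 0.05, and the smallest adjusted p was 0.325. At an unadjusted p under 0.05, 577 genes (2.89%) were higher in KO and 565 (2.83%) lower, 1142 (5.73%) in all. The samples of the groups did not overlap for 1251 genes (6.27%) higher in KO and 2326 genes (11.7%) lower. That imbalance sat in dim genes: among the dimmest 40%, 16.1% of genes were apart and lower and 2.88% apart and higher, while among the brighter 60% the shares were 8.71% and 8.53%. Differences below 0 made up 69.8% of the dimmest and 50.7% of the brighter genes, beside 58.4% of all. The median difference of all genes was -0.03, of the dimmest -0.04 and of the brighter ones -0.003. Genes at least 2-fold apart with no overlap numbered 24 higher (0.12%) and 49 lower (0.246%). The count of calls turned on single KO samples: without the KO pair 17 genes passed, and without KO tumour 1 the genes Frzb and Mrpl39 passed. The genes described below are therefore those of smallest p or largest difference among non-overlapping genes whose higher group mean was at or above the median of all genes, given as measured levels that did not pass the test.

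**Figure D1:**
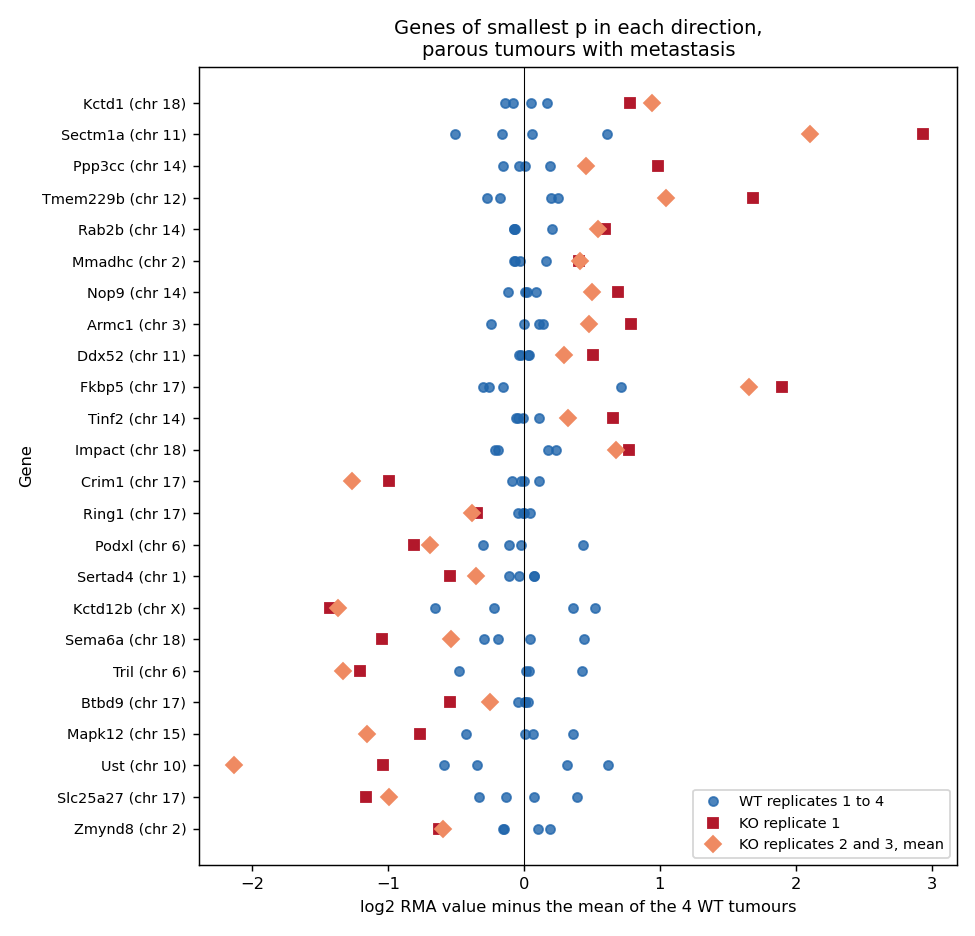
Log2 RMA value of each sample minus the mean of the 4 WT tumours (x axis) for the 12 genes of smallest p in each direction (y axis, with chromosome); circles are WT tumours, the square is KO tumour 1 and the diamond the mean of KO tumours 2 and 3. Both KO symbols lie on the same side of all WT circles in each row, as the rule for choosing the genes requires, with KO Sectm1a farthest to the right and KO Ust farthest to the left.

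Kctd1, a BTB-domain protein that represses AP-2 transcription factors, had the smallest p of all genes. It measured 11.14 in KO tumour 1 and 11.30 in the KO pair against 10.41, 10.53, 10.28 and 10.22 in WT. Both KO samples were above every WT sample, and the 2 KO samples were close to each other. The difference was 0.86 (SE 0.15), a 1.82-fold higher level, with a limma adjusted p of 0.325. Its adjusted p ranged from 0.013 to 0.66 over the alternative settings. The low end, with all 18 arrays and replicate number as a block, counts the near-identical KO arrays as separate samples.

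Sectm1a, which encodes a secreted and transmembrane immune costimulatory protein, showed the largest higher difference among the genes so chosen. Its values were 10.74 and 9.91 in KO and 7.30, 8.42, 7.86 and 7.64 in WT. The lower KO sample still exceeded the highest WT sample. The difference was 2.52 (SE 0.45), or 5.74-fold, with a limma adjusted p of 0.325. Its neighbour in sequence and name, Sectm1b, was also higher in both KO samples, at 8.72 and 7.21 against 6.66, 6.82, 6.79 and 7.07. For Sectm1b nearly all of the difference of 1.13 (SE 0.41) came from KO tumour 1, and probes of such related genes may share signal.

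Fkbp5, a co-chaperone of the glucocorticoid receptor whose gene is itself induced by glucocorticoids, was at 11.63 and 11.39 in KO and at 9.48, 10.45, 9.58 and 9.43 in WT. WT tumour 2 stood above the other WT tumours, and both KO samples stood above it. The difference was 1.78 (SE 0.36), or 3.43-fold (limma adjusted p = 0.353). Tmem229b, a membrane protein gene, had 11.15 and 10.52 in KO against 9.72, 9.30, 9.19 and 9.66 in WT. Its difference was 1.37 (SE 0.25), with KO tumour 1 the higher of the KO samples.

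Other secreted, surface and transport proteins stood among the largest higher differences. Npr3, the clearance receptor for natriuretic peptides, measured 10.36 and 10.46 in KO against 8.60, 8.19, 9.22 and 8.82 in WT, a difference of 1.70 (SE 0.58). The KO samples agreed closely for this gene and the WT samples spread over more than 1 unit. Sema3d, a secreted semaphorin that guides cells and axons, measured 8.02 and 8.86 in KO against 6.04, 6.95, 6.16 and 6.61 in WT, a difference of 2.00 (SE 0.73). Slc39a14, a zinc and manganese importer encoded on chromosome 14, was bright in all samples, with 12.26 and 11.74 in KO against 10.56, 10.99, 10.50 and 10.35. Its difference of 1.39 (SE 0.30) was the most precise of these in units of its error. Gdpd3, a phosphodiesterase of lysophospholipids, measured 11.37 and 10.93 in KO against 8.90, 10.31, 9.13 and 9.09 in WT. As for Fkbp5, WT tumour 2 was the WT sample nearest to the KO samples. The limma adjusted p of these genes lay between 0.436 for Slc39a14 and 0.854 for Gdpd3.

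Several genes of small p carried small, tight differences in housekeeping proteins. Mmadhc, which takes part in vitamin B12 trafficking, had 10.27 and 10.28 in KO against 10.03, 9.84, 9.80 and 9.79 in WT. Ddx52, an RNA helicase, had 9.66 and 9.44 against 9.18, 9.17, 9.12 and 9.11. Armc1, an armadillo-repeat protein linked to mitochondria, had 10.60 and 10.29 against 9.93, 9.57, 9.82 and 9.95. These differences were between 0.40 and 0.63, each with a limma adjusted p of 0.325. Impact, an inhibitor of the amino-acid sensing kinase GCN2, differed by 0.72 (SE 0.15; limma adjusted p = 0.394).

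Crim1, a transmembrane protein that binds bone morphogenetic proteins, had the smallest p among the genes lower in KO so chosen. That choice leaves out genes below median brightness. It measured 8.80 and 8.53 in KO and 9.71, 9.79, 9.90 and 9.78 in WT. The WT samples lay within 0.20 of each other, and both KO samples were well below them. The difference was -1.13 (SE 0.22), a 2.19-fold lower level, with a limma adjusted p of 0.325. Podxl, which encodes the sialomucin podocalyxin, measured 8.42 and 8.53 in KO against 9.21, 9.11, 8.92 and 9.66. Its difference was -0.75 (SE 0.17; limma adjusted p = 0.481).

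Chromatin and signalling genes followed. Ring1, the E3 ligase subunit of Polycomb complexes, measured 8.91 and 8.87 in KO against 9.26, 9.31, 9.21 and 9.25 in WT, and differed by -0.37 (SE 0.08). Zmynd8, a chromatin reader, measured 9.15 and 9.17 against 9.88, 9.63, 9.97 and 9.62. Mapk12, the gamma isoform of the p38 kinase, measured 8.26 and 7.87 against 9.03, 8.60, 9.09 and 9.39, a difference of -0.96 (SE 0.24). In each of these the 2 KO samples agreed as well as the WT samples did. Tril, a partner of Toll-like receptor 4, measured 7.22 and 7.10 in KO against 8.86, 7.95, 8.45 and 8.47, and Kctd12b, an auxiliary subunit of GABA-B receptors by its family, 7.09 and 7.15 against 8.30, 9.03, 8.87 and 7.86. Ust, a sulfotransferase of glycosaminoglycans, differed by -1.59 (SE 0.39), and the KO pair (6.89) was more than 1 unit below KO tumour 1 (7.98). Their limma adjusted p lay between 0.416 for Ring1 and 0.688.

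The largest lower differences were in genes that varied widely between WT tumours as well. Hoxa5, a homeobox transcription factor, measured 6.43 and 6.54 in KO against 8.12, 8.25, 9.31 and 9.68 in WT. The KO samples were at a level typical of dim genes, and the WT samples fell into a lower and a higher pair. The difference was -2.36 (SE 0.64), or 5.12-fold (limma adjusted p = 0.791). Pon3, a paraoxonase, measured 7.45 and 7.02 in KO against 10.15, 8.14, 8.56 and 10.39, and Adh1, an alcohol dehydrogenase, 7.55 and 6.37 against 9.45, 7.84, 9.40 and 10.15. For both, WT tumour 2 was the WT sample nearest to KO. Klk1b11, a kallikrein, had groups that nearly met, with KO tumour 1 at 7.15 and WT tumour 2 at 7.21.

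Promoters were read because Snail factors bind the E-box CAGGTG, which reads CACCTG on the other strand. The window was 250 bases before to 50 bases after each RefSeq start site of GRCm38.p6. Of 15614 tested genes with a window, 3465 (22.2%) held the motif on either strand. Among the genes of smallest p or largest difference with a window, 2 of 10 higher in KO and 3 of 12 lower in KO held it, shares of 20% and 25% beside that 22.2%. A match is a description of the letters and not a site of binding. The genes were Tmem229b and Sema3d among the higher and Mapk12, Zmynd8 and Klk1b11 among the lower. The 3 windows shown are examples of either direction; they are written in the gene's direction, 5′ to 3′, with the E-box in capitals. The Tmem229b window is at chr12:78983433-78983732 on the minus strand, and its motif begins 149 bases before the start site; a second window of this gene, at another start site, holds the motif 240 bases before it. The Sema3d window is at chr5:12382916-12383215 on the plus strand, with the motif 210 bases before the start site. The Mapk12 window is at chr15:89140654-89140953 on the minus strand, with the motif 226 bases before the start site.
Tmem229b: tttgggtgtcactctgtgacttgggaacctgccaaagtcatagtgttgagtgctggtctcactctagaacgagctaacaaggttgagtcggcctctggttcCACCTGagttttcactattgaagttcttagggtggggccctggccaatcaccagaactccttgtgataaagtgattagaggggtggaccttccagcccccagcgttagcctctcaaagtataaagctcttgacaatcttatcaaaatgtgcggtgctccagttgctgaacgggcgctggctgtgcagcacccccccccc
Sema3d: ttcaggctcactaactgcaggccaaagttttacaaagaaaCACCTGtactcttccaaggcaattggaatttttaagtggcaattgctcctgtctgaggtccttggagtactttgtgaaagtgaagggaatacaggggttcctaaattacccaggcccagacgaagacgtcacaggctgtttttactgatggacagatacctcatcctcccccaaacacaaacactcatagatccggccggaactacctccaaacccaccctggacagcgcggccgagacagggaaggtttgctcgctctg
Mapk12: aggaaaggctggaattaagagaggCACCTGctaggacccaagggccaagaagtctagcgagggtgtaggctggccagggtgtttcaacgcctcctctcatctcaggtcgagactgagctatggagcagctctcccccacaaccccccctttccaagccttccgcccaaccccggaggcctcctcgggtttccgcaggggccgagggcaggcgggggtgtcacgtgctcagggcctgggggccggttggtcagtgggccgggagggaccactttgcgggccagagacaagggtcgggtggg
Among the windows not shown, the motif began 220 bases before a start site of Zmynd8 and 17 bases after that of Klk1b11. In each window shown the motif occurs once and reads CACCTG on the gene's strand. Tmem229b and Sema3d were higher in KO and Mapk12 was lower, so the motif was present in genes of both directions.

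Chromosome 14 was read along its length because 4 of the 12 genes of smallest p in the higher direction lie there. KO tumour 1 carried higher values across the whole chromosome. The median deviation of its 416 brighter genes from the mean of the 2 KO and 4 WT samples was 0.38. It was -0.08 in the KO pair and -0.11 to -0.02 in the WT tumours. Across 9 windows along the chromosome, KO tumour 1 lay between 0.31 and 0.43 and the KO pair between -0.15 and -0.04. No window of KO tumour 1 overlapped a window of another sample. Of the 699 genes tested on this chromosome, 101 (14.4%) were higher at an unadjusted p under 0.05, beside 2.89% of all genes, and 476 such genes lay elsewhere. Without the KO pair, 8 of the 17 genes that passed were on chromosome 14. Whether DNA copy number differed was not tested.

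Single genes on the chromosome differed in how far the KO pair followed. Ppp3cc, a catalytic subunit of the phosphatase calcineurin, measured 10.32 in KO tumour 1 and 9.79 in the KO pair against 9.34, 9.53, 9.30 and 9.18 in WT. Rab2b, a small GTPase of membrane traffic, measured 9.76 and 9.71 against 9.09, 9.10, 9.37 and 9.10. For Rab2b the KO samples were equal to within 0.05, so its difference of 0.57 (SE 0.11) did not come from KO tumour 1 alone. Tinf2, a subunit of the telomere-protecting shelterin complex, measured 9.52 and 9.18 against 8.85, 8.80, 8.82 and 8.97. Nop9, an RNA-binding protein of ribosome assembly, measured 8.96 and 8.77 against 8.36, 8.29, 8.27 and 8.15. In all 4 genes KO tumour 1 was above the KO pair. Both lay above all WT samples, as the rule for choosing the genes requires, so these genes do not describe the KO pair along the rest of the chromosome. The limma adjusted p was 0.353 for Tinf2 and 0.325 for the other three, and without the KO pair Ppp3cc passed at 0.020.

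Other chromosomes differed less between group means, and on chromosome 14 that difference came from KO tumour 1. Chromosome 8 was low in KO tumour 1 (-0.22) and in WT tumour 4 (-0.30), chromosome 15 was high in WT tumour 4 (0.27), and chromosome 5 in WT tumour 1 (0.21). Chromosome 18 held 41 of 471 genes (8.70%) higher at an unadjusted p under 0.05, and both KO samples (0.08 and 0.04) were at or above all WT samples there (-0.11 to 0.04). Chromosome 17 held 70 of 936 genes (7.48%) lower, beside 2.83% of all genes, and its level was -0.10 and -0.01 in KO against 0.00 to 0.09 in WT. The exact permutation p for chromosomes 13, 17 and 18 was 0.133, the smallest possible, and 0.89 after adjustment over 20 chromosomes. For chromosome 14 the exact permutation p was 0.4, with the KO pair inside the WT range.

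**Figure D2:**
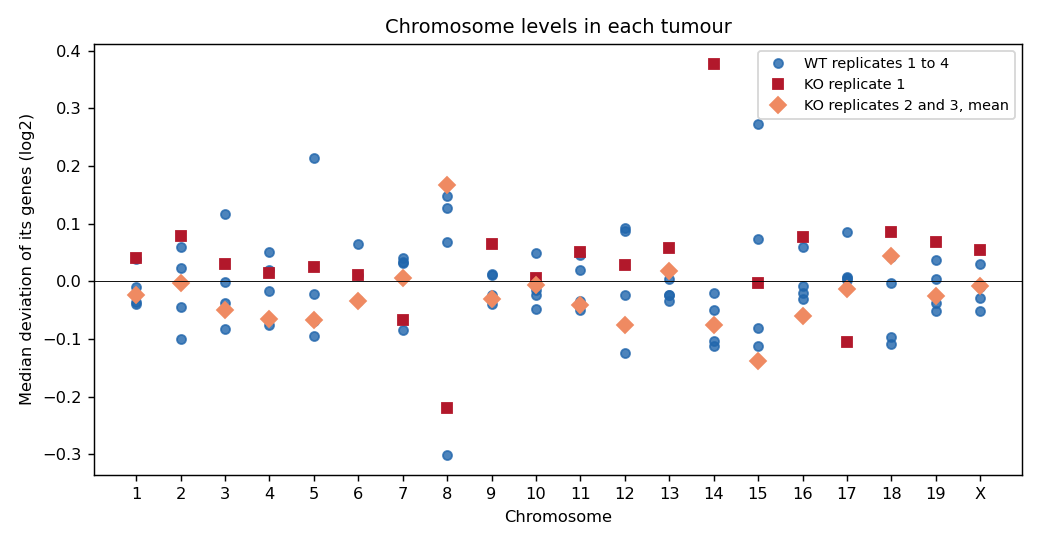
Level of each chromosome (x axis) in each sample (y axis). A level is the median log2 deviation of the chromosome's brighter genes from their mean over the 2 KO and 4 WT samples compared. Circles are WT tumours, squares KO tumour 1, diamonds the mean of KO tumours 2 and 3. KO tumour 1 stands at 0.38 on chromosome 14, and its chromosome 8 is low together with that of WT tumour 4.

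Of the 70 lower genes of chromosome 17, 22 lay in the histocompatibility region and 48 outside it. This region encodes the proteins that present peptides to T cells, and its alleles differ between inbred mouse strains. The stretch from Ring1 to Gabbr1 was chosen after its values were seen, so its counts are a description. Of its 137 genes, 30 were above 0 and 107 (78.1%, beside 58.4% of all genes) below, with a median of -0.09 beside -0.03 for all genes. The whole chromosome leaned the same way: of its 589 brighter genes 29.2% were above 0, with a median of -0.07. Samples did not overlap for 4 genes higher and 33 (24.1%) lower in KO, beside 6.27% and 11.7% of all genes. An unadjusted p under 0.05 was found for 1 gene higher and 22 (16.1%) lower, beside 2.89% and 2.83% of all genes. On the whole of chromosome 17, this region included, these shares were 0.96% and 7.48%. The haplotypes of these tumours were not tested.

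D17H6S56E-5, a transcript of this region, showed the largest lower difference of all genes by the naming rule. It measured 8.61 and 9.24 in KO against 11.64, 12.53, 11.99 and 11.37 in WT, a difference of -2.96 (SE 0.99), or 7.79-fold. H2-Ea, the alpha chain of the class II molecule I-E, measured 7.57 and 7.56 in KO against 9.31, 10.36, 9.70 and 9.78 in WT, a difference of -2.22 (SE 0.88). H2-T24, a non-classical class I gene, measured 7.05 and 7.22 in KO against 9.36, 9.72, 8.62 and 8.51, a difference of -1.92 (SE 0.58). For these genes the KO samples lay more than 1 unit below the lowest WT sample. The limma adjusted p was between 0.823 and 0.846, and the same genes also varied within other groups. D17H6S56E-5 was at 13.19, 9.51 and 12.10 in nulliparous KO tumours without metastasis and at 12.78, 12.11, 9.06 and 12.34 in nulliparous WT tumours. H2-Ea was at 10.34, 6.95 and 10.78 in the first of these groups and at 11.24, 10.27, 8.48 and 10.44 in the second. Low values of both genes thus fell in the same nulliparous KO tumour and in the same nulliparous WT tumour, whereas all 3 parous KO tumours without metastasis were high (11.54 to 12.25 and 10.22 to 10.61).

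Class II genes of the region did not go one way. H2-Aa and H2-Ab1, the chains of the class II molecule I-A, were higher in both KO samples, with H2-Aa at 10.38 and 10.76 against 9.62, 9.73, 9.45 and 9.996. H2-Ab1 was at 8.97 and 9.47 against 8.37, 8.80, 8.50 and 8.81. H2-Eb1, the beta chain of I-E, was lower in both KO samples, at 8.0 and 8.32 against 8.56, 8.86, 8.58 and 8.65. The differences were 0.87, 0.60 and -0.50, with a limma adjusted p of 0.91 for each. Gabbr1, a GABA-B receptor subunit at the end of the stretch, was at 8.70 and 7.87 against 9.32, 8.89, 9.55 and 9.995, and Vars, an aminoacyl-tRNA synthetase next to D17H6S56E-5, at 9.42 and 9.75 against 10.40, 10.76, 10.53 and 10.22.

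**Figure D3:**
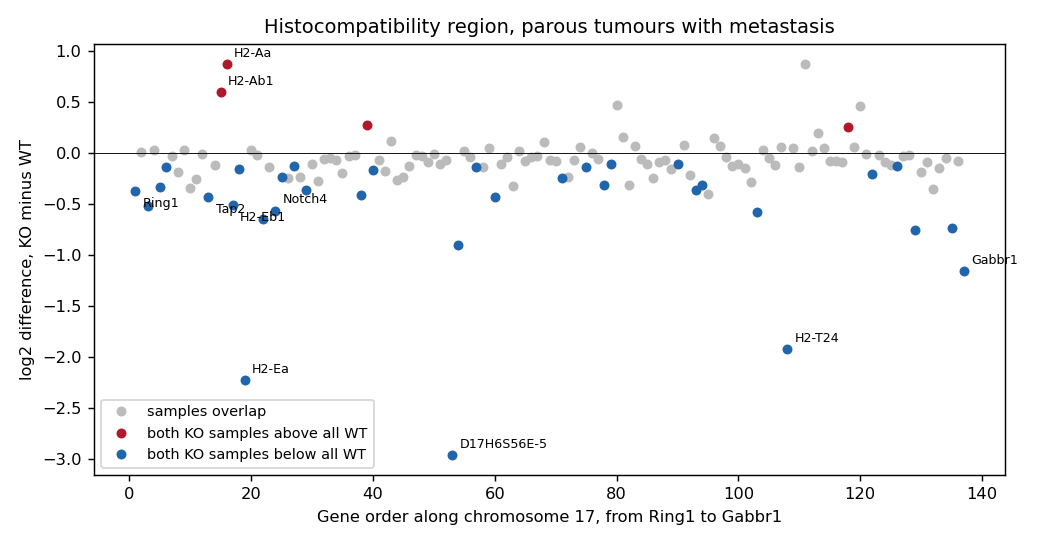
Log2 difference, KO minus WT (y axis), of 137 genes in their order along chromosome 17 from Ring1 to Gabbr1 (x axis); red and blue points are genes whose 2 KO samples are all above or all below the 4 WT samples, grey points overlap. Blue points outnumber red ones by 33 to 4, and the red H2-Aa and H2-Ab1 stand beside the blue H2-Eb1 and H2-Ea.

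The genes around Snai2 on chromosome 16 were read because a targeted allele keeps flanking DNA of the strain it was made in. Of 31 measured genes within 2 Mb, 24 were above 0 and 7 below, with a median of 0.06, beside 41.6% of all genes above 0. An unadjusted p under 0.05 was found for 4 of them, beside 5.73% of all genes, and 7 were apart and higher and 2 apart and lower, beside 6.27% and 11.7%. Within 10 Mb, 109 of 213 genes were above 0 with a median of 0.004. Of the 5 nearest named genes on each side, Nde1 and Efcab1 were apart, both higher, and the other 8 overlapped. Among the overlapping ones, Mcm4, a subunit of the replication helicase, differed by 0.26 (SE 0.14) and Ube2v2, a ubiquitin-conjugating enzyme variant, by 0.19 (SE 0.10). Abcc1, a drug exporter, differed by 0.004 (SE 0.32) and Prkdc, the DNA-dependent protein kinase, by 0.01 (SE 0.19). Nde1, a regulator of dynein, measured 9.34 and 9.28 in KO against 9.12, 9.08, 8.99 and 9.13, and Efcab1, the nearest gene on the far side, 5.08 and 5.06 against 4.92, 4.94, 4.96 and 4.93. Efcab1 is dim in all samples. Cebpd, a transcription factor gene just beyond, was at 9.51 and 8.66 against 8.30, 8.63, 8.54 and 8.02, a difference of 0.71 (SE 0.33) seen mostly in KO tumour 1. It was named after its value was seen. Of 5 genes known to differ between mouse strains (Disc1, Pde6b, Hc, Nnt, Casp4), none had groups apart, and their differences ran from -0.19 to 0.16. Of these, 2 (Pde6b and Hc) belong to the dimmest 40% of genes, where a strain difference could go unseen.

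The gene lists of pathways and cell types held 789 distinct measured genes in 42 lists, and 0 members passed the threshold (0% of all genes passed). Each list is read against the background of 58.4% of genes below 0 and a median of -0.03. The transcription factors of epithelial-mesenchymal transition were near that background: of 12 Snail, Zeb and Twist genes 9 were below 0, with a median of -0.09. Zeb1 measured 8.52 and 8.69 in KO against 8.66, 9.22, 8.04 and 8.33 in WT, and Snai1 8.22 and 8.67 against 8.34, 8.76, 8.59 and 8.68. Both overlapped. Twist1 differed by -0.14 (SE 0.15) and Zeb2 by -0.28 (SE 0.42). Snai2 was the only member of the 12 whose groups were apart.

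Epithelial and mesenchymal genes showed no opposed pattern. Of 25 junction genes 19 were below 0 (median -0.09), and of 20 mesenchymal genes 12 were below (median -0.05, and 0.16 without WT tumour 2). Cdh1, the E-cadherin gene that Snail factors repress, measured 11.23 and 11.73 in KO against 11.72, 11.96, 11.84 and 11.52 in WT, so the groups overlapped. Esrp1, a splicing factor of epithelial cells, measured 11.39 and 11.38 against 12.05, 11.97, 11.41 and 11.52, with both KO samples lowest. Vim, the intermediate filament of mesenchymal cells, measured 13.14 and 13.47 against 12.84, 13.14, 13.02 and 13.12. Itgb3, an integrin subunit, measured 9.505 and 9.96 against 10.55, 10.27, 10.55 and 10.32, a difference of -0.69 (SE 0.44). Among luminal genes the epithelial factor Elf3 had 7.70 and 8.20 against 8.43, 8.33, 9.25 and 9.65 (difference -0.97, SE 0.37; limma adjusted p = 0.832), while its relative Ehf had 12.73 and 12.50 against 12.19, 12.40, 12.22 and 12.43.

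ERBB signalling genes were level on the whole and uneven one by one. Of 18 receptors, ligands and neighbours of Erbb2, 6 were above 0 and 12 below, with a median of -0.08. Nrg2, a neuregulin ligand of ERBB receptors, was higher in both KO samples, at 10.57 and 10.04 against 9.53, 9.53, 9.58 and 9.68, a difference of 0.73 (SE 0.23; limma adjusted p = 0.825). Egf, the ligand of the EGF receptor, was lower, at 8.003 and 7.52 against 10.10, 8.22, 9.15 and 9.31, a difference of -1.43 (SE 0.70). Erbb3, the partner receptor of ERBB2, was at 12.05 and 11.81 against 12.10, 12.17, 12.20 and 12.16. Erbb4 divided the tumours without regard to genotype, at 10.16 in KO tumour 1 and 9.24 to 10.30 in WT tumours 1, 3 and 4, but 6.33 in the KO pair and 6.11 in WT tumour 2. Downstream, the PI3K-regulated factors Foxo1 (11.53 and 11.02 against 10.63, 10.55, 10.94 and 10.34) and Foxo3 (11.21 and 10.89 against 10.67, 10.52, 10.54 and 10.67) were both higher in KO. Tsc2, a brake on mTOR, was lower by 0.23 on the log2 scale. These were 3 of the 20 genes of the PI3K list, whose median was 0.004.

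Notch genes lay mostly below 0. Of 20 genes of this pathway of contact signalling between cells, 15 were below, with a median of -0.14. The unadjusted limma p was under 0.05 for 4 lower members and for none higher, beside 2.83% and 2.89% of all genes. Of the list, 6 members were apart and lower and 2 apart and higher, beside 11.7% and 6.27% of all genes. Notch1, a receptor, measured 8.86 in KO tumour 1 and 10.67 in the KO pair, against 10.57, 10.81, 11.06 and 11.25 in WT. Its difference of -1.16 (SE 0.38) came from KO tumour 1, and without the KO pair it was -2.06 with a limma adjusted p of 0.034. Nrarp, a target and feedback inhibitor of Notch, measured 7.52 and 8.17 against 8.31, 8.37, 8.39 and 8.40. Against the direction of the list, the ligand Dll1 measured 10.66 and 10.88 against 9.83, 9.75, 10.01 and 10.05, a difference of 0.86 (SE 0.40). The median of the list lay between -0.18 and -0.12 over the alternative settings.

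TGF-beta and BMP genes had 23 of 29 members below 0 and a median of -0.10. Besides Crim1, Smad3, a transducer of TGF-beta signals, was lower in both KO samples, at 10.52 and 10.58 against 10.94, 10.74, 11.10 and 10.83 (difference -0.36, SE 0.12; limma adjusted p = 0.825). Smad2 and Smad4, its partner proteins, were higher in both, by 0.27 (SE 0.14) and 0.15 (SE 0.08). Among other pathways, Cxcr4, the receptor of the chemokine CXCL12, was lower in KO, at 9.55 and 9.31 against 10.23, 10.20, 11.16 and 10.73, a difference of -1.15 (SE 0.34; limma adjusted p = 0.808). Mycn, a Myc family factor, measured 7.13 and 7.24 against 7.78, 7.73, 7.73 and 7.82, a difference of -0.58 (SE 0.11; limma adjusted p = 0.325) in a gene below median brightness. Sesn1, a stress-induced p53 target, measured 11.24 in KO tumour 1 and 9.68 in the KO pair against 9.31 to 9.63 in WT.

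Lipid synthesis genes leaned the other way. Of 22 genes 17 were above 0, with a median of 0.07. The members of smallest p were Idi1 and Cyp51, both enzymes of cholesterol synthesis. Idi1 measured 9.55 and 9.88 in KO against 8.74, 8.68, 9.40 and 8.99 in WT, and Cyp51 8.64 and 8.95 against 8.46, 7.79, 8.59 and 8.20. Their differences were 0.76 (SE 0.27) and 0.53 (SE 0.20), with limma adjusted p values of 0.825 and 0.832. For both genes WT tumour 3 came nearest to the KO samples. Fasn, the fatty acid synthase, differed by 0.15 (SE 0.20), Srebf2, the main regulator of cholesterol synthesis, by -0.04 (SE 0.14) and Dhcr7, the enzyme of the last step to cholesterol, by -0.16 (SE 0.15).

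Lists of cell types were read for other cells in the samples. In bulk tumours, fewer cells of a type and less RNA per cell cannot be told apart. Of 21 endothelial markers 20 were below 0 (median -0.24), but the median was -0.10 without WT tumour 2, which had the highest mean of the list (8.98 against 8.24 to 8.54 in the other samples). Kdr, the main VEGF receptor, measured 7.94 and 8.67 in KO against 9.10, 9.41, 8.52 and 8.95. The macrophage list had a median of -0.15 and of 0.02 without WT tumour 2, and the skeletal muscle list of -0.13 and of 0.09. Of 23 T and NK cell markers 22 were below 0 and 9 apart and lower, all 9 among the 21 members that belong to the dimmest 40% of genes, of which 16.1% were apart and lower. The mean of the list was 6.62 and 6.54 in KO against 6.66 to 6.77 in WT. Of 20 B and plasma cell markers 14 were below 0 and 5 apart and lower, beside 58.4% and 11.7% of all genes. Of the 20 markers 15 belong to the dimmest 40% of genes, of which 69.8% were below 0 and 16.1% apart and lower. The mean of that list was 7.18 and 7.17 in KO against 7.22 to 7.34 in WT, so in both lymphocyte lists the KO samples were below all WT samples by narrow margins. Milk genes had 15 of 19 members above 0 and a median of 0.24, which was -0.10 without the KO pair, and interferon response genes a median of 0.08, which was -0.19 without the KO pair and 0.40 without KO tumour 1. Cell cycle genes behaved in the same way, at 0.10, -0.20 and 0.40. In each of these lists the KO samples lay on different sides of the WT mean.

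**Figure D4:**
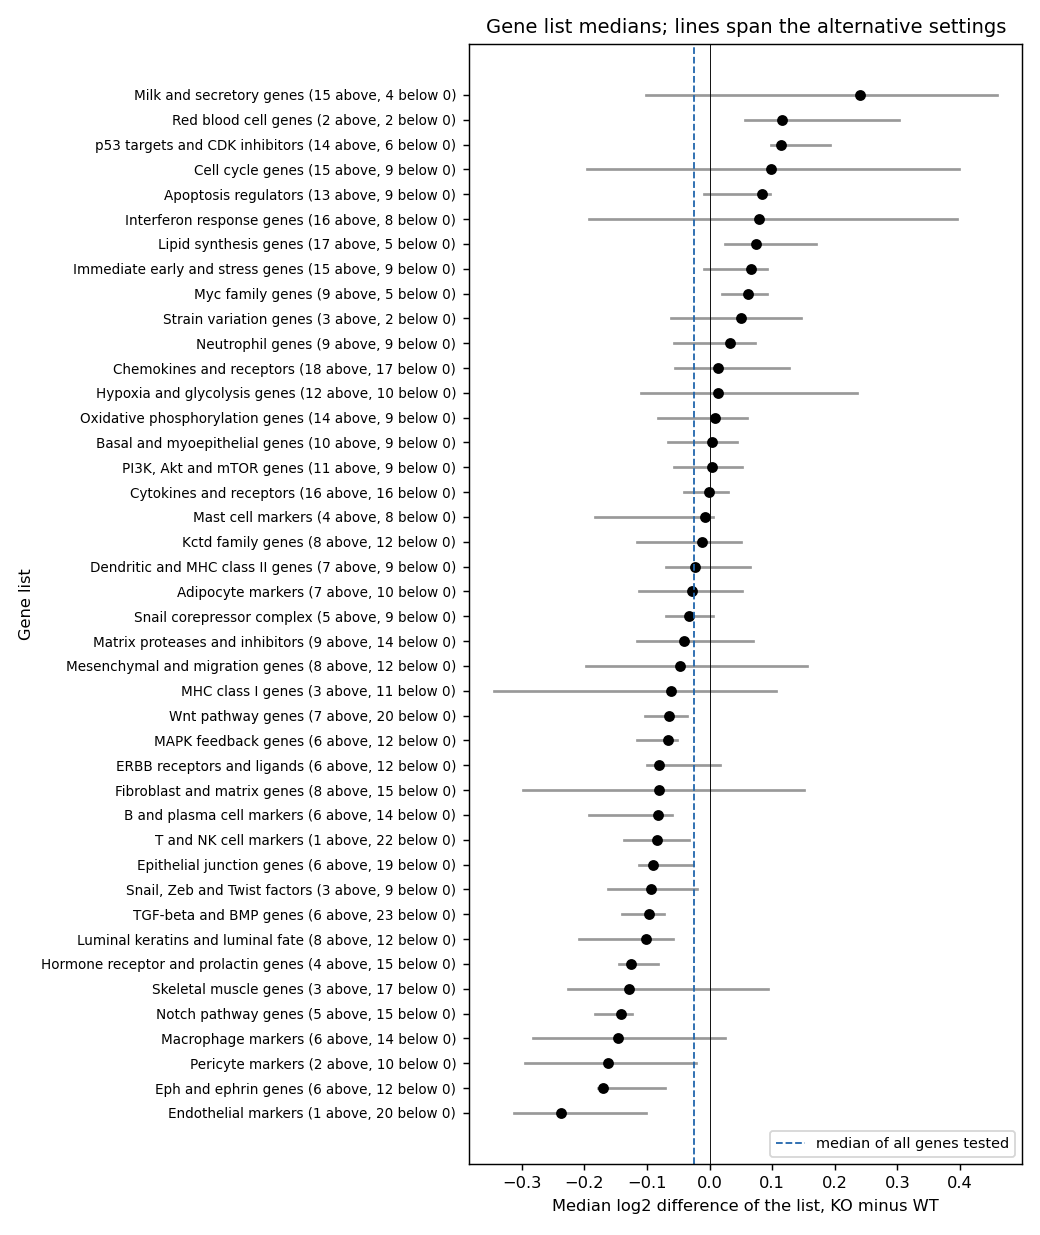
Median log2 difference, KO minus WT, of each gene list (points, x axis), with the number of members above and below 0 beside its name (y axis); grey lines run from the lowest to the highest median over the alternative settings, and the dashed line marks the median of all genes, -0.03. The medians of 13 lists, Notch among them, stay below 0 in all settings and those of 4 stay above; 25 lines reach both sides of 0, the milk, interferon and cell cycle lists among them.

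The same genes were then read in nulliparous tumours, which share no sample with this comparison. There, KO tumours without metastasis were set against WT tumours with metastasis, so metastasis status differs along with genotype, and 49 genes (0.246%) passed a limma adjusted p of 0.05. Of the 17 named genes higher in parous KO tumours, 12 had the same sign in nulliparous tumours, with a median of 0.09 beside 0.86. Of the 20 lower genes 11 had the same sign, with a median of -0.01 beside -1.33. The share of all genes with the same sign was not counted, so these counts are a description only. Kctd1 kept its sign at 0.25 (SE 0.13), Crim1 at -0.43 (SE 0.20), Podxl at -0.57 (SE 0.15), H2-T24 at -0.99 (SE 0.51) and Sema3d at 1.20 (SE 0.64), each smaller than in parous tumours. The Sema3d difference came from 1 KO tumour. Its values were 6.33, 7.07 and 9.79 in KO against 7.27, 6.47, 6.07 and 6.27 in WT. Genes of the opposite sign included Sectm1a and Gdpd3 among the higher genes, and Hoxa5, Tril and Adh1 among the lower ones. Sectm1a was at 8.66, 7.08 and 7.55 in nulliparous KO tumours without metastasis and at 10.21, 9.68, 8.92 and 9.33 in nulliparous WT tumours, a difference of -1.77 (SE 0.39; limma adjusted p = 0.078). The single nulliparous KO tumour with metastasis was at 10.58, above all of them. For Gdpd3 the nulliparous difference was -3.07 (SE 0.68; limma adjusted p = 0.076).

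**Figure D5:**
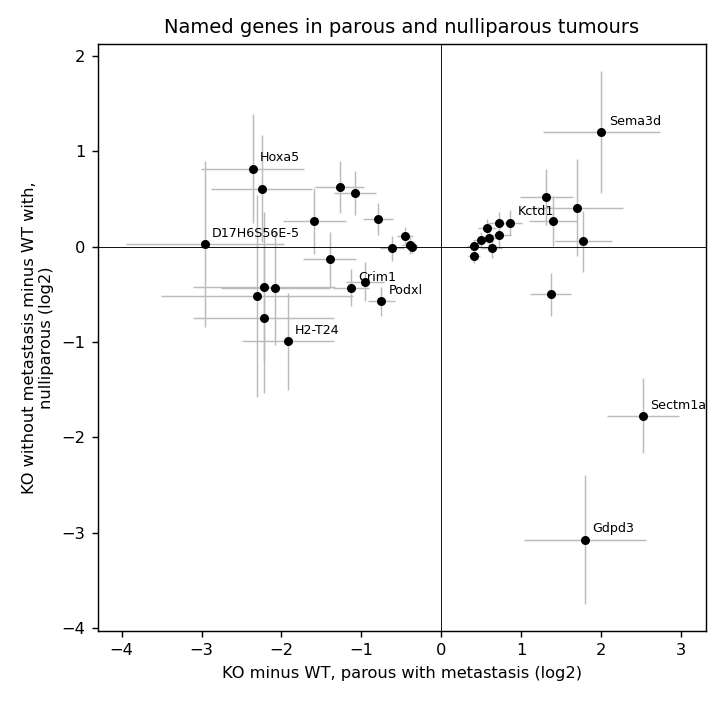
Log2 difference, KO minus WT, of the genes of smallest p or largest difference in parous tumours with metastasis (x axis) and the difference of nulliparous KO tumours without metastasis from nulliparous WT tumours with metastasis (y axis); grey bars are standard errors of the limma fit. Sema3d lies above 1 on the y axis, Sectm1a (2.52 and -1.77) and Gdpd3 (1.79 and -3.07) lie below -1, and the other points lie between.

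The genotype difference among tumours with metastasis was tested against parity directly, with the limitation that the nulliparous KO group is 1 tumour. With limma, 13 genes (0.0652%) had an adjusted p under 0.05, all with a lower difference in parous tumours, and 809 (4.06%) an unadjusted p under 0.05. Most were genes of B cells and plasma cells: Ighm and the immunoglobulin kappa segments Igkv6-20, Igkv8-30 and Igkv9-120, the surface protein Ms4a1, the adaptor Bank1, the plasma cell protein Mzb1 and the regulators Irf4 and Pou2af1. Igkv9-120 was at 10.89 in the lone nulliparous KO tumour and at 5.62 to 6.40 in nulliparous WT tumours, while parous tumours lay between 5.47 and 5.89. Hoxb3 was at 9.31 in that tumour and at 7.98 to 8.17 in nulliparous WT tumours. The parous KO and WT samples themselves hardly differed for these genes, so every one of the 13 calls rests on the lone tumour. None of the parous genes described above passed this test; Sectm1a differed by 1.48 (SE 0.73) between parities and Kctd1 by 0.66 (SE 0.24), each with a limma adjusted p of 1.00.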

How the data were processed

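Total RNA of 18 mammary tumours was hybridised to single-colour Affymetrix arrays. The deposited log2 values of 35556 probe sets were made with RMA in the oligo package, per the submitters' processing notes, which give no versions here. This method corrects background, equalises array distributions and summarises probes, so a shift shared by all genes is removed and dim genes are compressed. Arrays give no read depth; their number limits the precision. Array medians were 7.61 to 7.65.

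Probe sets with 1 gene (21789; 1621 had several and 12146 none) were kept, and the probe set of highest mean represented each of 19938 genes, of which 19855 matched RefSeq GRCm38.p6, used for order and promoters. Symbols are from the platform annotation. The comparison was a contrast in limma 3.58.1 (R 4.3.3; lmFit, eBayes, 2-sided) over 17 samples in 6 groups that share 1 spread, with the near-identical KO arrays averaged, and Benjamini-Hochberg adjustment over all genes. On simulated data of the 19938 genes with this design, 96 of 100 genes changed by 2 log2 units and 97 of 100 changed by 4 were recovered, with 16 false calls. The simulated noise was independent between samples, with 1 spread per gene for all groups, and changes below 2 log2 units were not simulated. The recovered shares therefore do not tell how many real changes the comparison of tumours could miss. Named genes were Snai2, Erbb2, the 12 smallest p and 8 largest differences each way among non-overlapping genes whose higher group mean was at or above the median of all genes, the 2 members of smallest p each way in every list, all members of 3 short lists, and 5 neighbours of Snai2 on each side; others were named after their values were seen. The members and lists were chosen with earlier results of these data known. Lists are described by counts and medians, with no test. Alternatives covered the averaging, the samples fitted, brightness, normalization, probe sets, weights, the prior and leaving out each replicate.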

Additional observations from a re-analysis of the deposited data

Results flagged for a closer look

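In 13 of 266 tests among the 4 WT tumours, a sample stood apart from the other three by more than Dixon's limit of 0.829 for the gap to the nearest sample over the range; chance gives about 5% of such tests. The gap was 0.984 for Rab2b, where WT tumour 3 was high, and 0.855 for Fkbp5 and 0.837 for Gdpd3, where WT tumour 2 was high. It was 0.917 for Limd1 (WT tumour 3 high), 0.859 for Krt19 and 0.921 for Camp (WT tumour 4 high in both), 0.878 for Plin1 and 0.917 for Mir484 (WT tumour 1 low in both) and 0.855 for Tpsb2 (WT tumour 3 low). Among list means it was 0.912 for luminal genes and 0.843 for Wnt genes, 0.923 for ERBB genes and 0.889 for skeletal muscle genes; the muscle mean was 7.99 in WT tumour 2 and 6.97 to 7.08 in the other WT tumours.

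The interaction test in limma called 13 genes, with the nulliparous KO group made up of 1 tumour; each call rests on that tumour's level and is no measure of parity. Pou2af1, a coactivator of B cells, is the one of them among the named genes: its parous minus nulliparous genotype difference was -1.11 (SE 0.16; limma adjusted p = 0.014), and the lone nulliparous KO tumour measured 8.10 against 7.14 to 7.39 in nulliparous WT tumours.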

How the results depend on the processing

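The count of genes past an adjusted p of 0.05 with limma was 0 and stayed 0 with all 18 arrays kept apart, only the groups compared, the dimmest genes left out, renormalization, all probe sets, array weights and a trended prior. Leaving out replicates gave 0 to 17 calls: 17 without the KO pair and 2 without KO replicate 1, each of which leaves 1 KO sample whose spread is borrowed from the other groups. With the replicate number as a block and 18 arrays, 1 gene passed. Whether the labels' numbers pair the tumours could not be decided. Deviations of same-numbered tumours correlated at 0.024, 0.293 and -0.006, and those of other numbers at -0.326 to 0.331. The arrays of the KO pair held almost the same values, so these correlations are not independent of each other. The 1142 genes of unadjusted p under 0.05 became 1849 with 18 arrays kept apart, 737 without the dimmest 40% of genes and 2052 over every probe set, the last 2 with fewer or more features tested; leaving out replicates gave 931 to 1601. The 13 genes whose difference differed with parity became 2 without the dimmest 40% of genes and 49 over every probe set, and 10 to 14 without single replicates. The cause of other changes was not tested. Dim genes, Snai2 included, are measured near the floor of the arrays.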
